A study of Mus musculus with 3 samples.

Results

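Cxcl9-positive preadipocytes are preadipocytes of mouse subcutaneous fat that carried mRNA of Cxcl9, the interferon-induced chemokine that draws T cells through the receptor CXCR3. They were chosen by their unique molecular identifiers (UMIs, each standing for 1 captured mRNA molecule). A cell passed the preadipocyte gate with at least 4 UMIs of Icam1 and Fabp4 together, at most 1 of Dpp4, 0 of Clec11a and at most 1 of Cited1, and it was a member with at least 2 UMIs of Cxcl9. Of 34577 cells kept, 4993 passed the gate and 502 of these were members, 203, 139 and 160 in mice 1, 2 and 3. They were compared with the 4228 cells of the same gate that had 0 UMIs of Cxcl9, and the 263 cells with exactly 1 were held apart. These 6 genes chose the cells, so their own levels are given as a description and were not tested.

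The cells came from the stromal vascular fraction of the inguinal subcutaneous depot of 3 male wild-type C57BL/6J mice, 8 weeks old and on a chow diet, after collagenase 2 digestion. CD31- CD45- cells, which lack the endothelial and the leukocyte surface marker, were sorted and loaded on droplets with the 10x 3′ v2 chemistry, with 1 library per mouse. There was 1 condition and no treated or mutant group, so every comparison is between cells of the same mice. From mouse 1 to 3 the deposited barcodes numbered 13698, 6872 and 16220, and their UMIs summed to 95899433, 79801002 and 100846072. Any pair of libraries shared 52 to 81 barcode sequences, and 0 of these were barcodes of member cells in both.

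Interferons are cytokines that switch on defence genes through JAK kinases and STAT transcription factors. Interferon-gamma, which is made mainly by T and NK cells, acts largely through promoter sequences called GAS elements, while type I interferons act largely through sequences called ISRE elements. The target genes overlap widely, and IRF1 carries the interferon-gamma signal on to many ISRE-bearing genes. Preadipocytes carry receptors for both kinds of interferon. Within its Icam1+ preadipocyte cluster, which is not the UMI gate used here, the study separated a CD44-high state, marked by Cd44, by Noct, which encodes the circadian phosphatase nocturnin, and by Ptx3, which encodes the secreted pattern recognition protein pentraxin 3.

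Most members carried markers of stromal progenitors in every mouse, while some carried endothelial markers, which are described below. Dcn, which encodes the matrix proteoglycan decorin, was detected in 100, 95.7 and 100% of members, and Pdgfra, a receptor of fibroblastic progenitors, in 91.6, 89.9 and 91.3%. Pparg, the master regulator of adipogenesis, was detected in 32.0, 38.1 and 31.3%. The pan-leukocyte gene Ptprc, the macrophage gene Adgre1, the T cell gene Cd3e and Ifng itself had 0 UMIs in members of any mouse, which allows up to 1.80, 2.62 and 2.28% of members with a UMI of such a gene (exact binomial interval, counting error only, and no limit on cells that express it below detection). Of 18 macrophage and dendritic cell markers 12 were at 0 in the members, and their summed level was 7.68, 10.8 and 8.05 counts-per-million of UMIs (CPM) in members against 9.77, 12.1 and 14.9 CPM in Cxcl9=0 cells. Of 16 lymphocyte markers 13 were at 0.

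Endothelial markers were high in members of mice 1 and 2. Pecam1, which encodes CD31, was detected in 13, 11 and 0 members of mice 1, 2 and 3 and in 11, 14 and 6 of the far more numerous Cxcl9=0 cells. The summed level of the endothelial and lymphatic list was 268, 235 and 40.3 CPM in members against 43.8, 75.0 and 44.1 CPM in Cxcl9=0 cells, with Cldn5, a tight junction gene of vessels, as its most abundant member. A total of 6 of its 8 tested genes were higher in members, 3 with a robust estimate of the spread and 2 with DESeq2. Comparisons without every cell with a UMI of Pecam1 or Cdh5, and the robust fit, were added after seeing the data. The mural list had 9 tested genes, 0 higher and 3 lower in members, where 1.42% of all tested genes were lower. Its median log2 difference was -0.58. Without cells carrying Pecam1 or Cdh5, 5 were lower, and with DESeq2 1. Its summed level was 73.3, 80.7 and 82.2 CPM in members against 116, 74.7 and 136 CPM, so mouse 2 was not lower. Schwann cell and erythroid markers had 4 tested genes, 0 higher and 1 lower (0 lower with DESeq2).

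Members were 10.1, 11.3 and 9.11% of the gated preadipocytes, a mean of 10.2% ± 1.07 (SD, n = 3), and 1.59% ± 0.557 of all kept cells. In the Dpp4 gate, the interstitial progenitors with at least 2 UMIs of Dpp4 and at most 1 of Icam1 and Fabp4 together, 0.537, 0.801 and 0.426% of 6701, 2621 and 8223 cells had at least 2 UMIs of Cxcl9. Even a single Cxcl9 UMI was found in only 2.22, 2.44 and 1.70% of those cells, at median depths of 7393, 12149 and 6792 UMIs, against 15.1, 17.9 and 13.7% of the gated preadipocytes at 7984, 12884 and 7257. These gates take opposite ends of Icam1 and Fabp4, at least 4 UMIs against at most 1. Any tie of Cxcl9 to those genes enters this contrast, and its part was not tested. The lowest mouse of the preadipocyte gate lay far above the highest mouse of the Dpp4 gate. Nearer shares were found in cells with a UMI of Clec11a and at most 1 of Dpp4 (the Clec11a gate), with at least 2 UMIs of Cxcl9 in 3.39, 4.30 and 2.29% of 679, 790 and 872 cells, and in the few cells with at least 2 UMIs of Cited1 and at most 1 of Dpp4 (the Cited1 gate), with 5.91, 2.44 and 5.56% of 186, 41 and 72 cells. The Cxcl9 level of the Cited1 gate, 158, 159 and 41.8 CPM, was close to the 159, 161 and 137 CPM of the preadipocyte gate in mice 1 and 2, on 11 and 1 cells with at least 2 UMIs. Cells thinned to 3000 UMIs kept the preadipocyte gate above the Dpp4 gate, with 6.74, 5.42 and 6.73% against 0.270, 0.154 and 0.221%.

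Cxcl9 was not spread evenly over the members. The median member carried 6 UMIs in each mouse and the highest carried 89, 449 and 87. The 10 highest cells held 28.9, 48.0 and 31.1% of all Cxcl9 UMIs of the members, and the summed level was 1431, 1340 and 1318 CPM. Members held 46.5, 59.7 and 51.4% of the Cxcl9 UMIs of all kept cells, so a large part of this chemokine's mRNA lay outside the gate. Of the 206, 104 and 196 kept cells outside it with at least 2 UMIs, 145, 70 and 149 failed on Icam1 and Fabp4. Among the few cells with at least 3 UMIs of the endothelial genes Pecam1 and Cdh5 and the mural gene Rgs5, 27.5, 22.9 and 0% of 51, 35 and 29 cells had at least 2 UMIs of Cxcl9.

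Against Cxcl9=0 preadipocytes of the same mouse, the members carried a broad interferon signature. Counts were summed per mouse and group and tested with edgeR's quasi-likelihood test with the mouse as a block, and p-values were adjusted by the Benjamini-Hochberg procedure over all 11757 genes tested. A total of 857 genes were called, 7.29% of those tested, of which 690 (5.87%) were higher and 167 (1.42%) lower. Without the mouse as a block the same test called 60 genes, all of them higher, and with the block it called 540 genes without mouse 1 and 450 without mouse 2. With normalization by library size alone the split was 535 higher and 366 lower. Of the 690, 588 were higher in each of the 3 mice, 375 were also called by DESeq2 and 570 were also called without cells carrying Pecam1 or Cdh5. The members were slightly deeper, with medians of 8282, 13812 and 7586 UMIs per cell against 7917, 12784 and 7222. All groups come from the same 3 animals, so the differences are paired within 3 mice. The p-values rest on a spread that edgeR estimates with information pooled over genes. They do not measure each gene's spread over the 3 mice alone.

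Interferon-inducible GTPases, which attack the membranes of intracellular pathogens, were the most uniform list. Of 16 tested, 16 were higher and 0 lower, with a median log2 difference of 2.01 against -0.00 over all genes tested, and all 16 were above the Cxcl9=0 cells without overlap of the groups, a pattern that 4.16% of all tested genes showed. Iigp1, an immunity-related GTPase, stood at 1250, 934 and 1369 CPM in members and at 275, 182 and 299 CPM in Cxcl9=0 cells. The lowest member sum lay above the highest Cxcl9=0 sum, and the log2 difference was 2.33 ± 0.05 (SE, adjusted p = 3.6e-23). Gbp2, a guanylate-binding protein, stood at 505, 363 and 464 CPM against 121, 94.0 and 132 CPM. Its groups did not overlap either, and the log2 difference was 2.03 ± 0.06 (adjusted p = 8.4e-20). Gbp5, which also promotes inflammasome assembly, was scarcer at 52.6, 38.2 and 54.8 CPM against 9.10, 10.7 and 11.7 CPM, and its difference of 2.28 ± 0.15 (adjusted p = 2.2e-12) was as large. Irgm1, which regulates the other GTPases, differed by 1.99 ± 0.07, Gbp6 by 1.84 ± 0.10, Gbp7 by 1.51 ± 0.10 and Irgm2 by 1.49 ± 0.11.

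**Figure D1:**
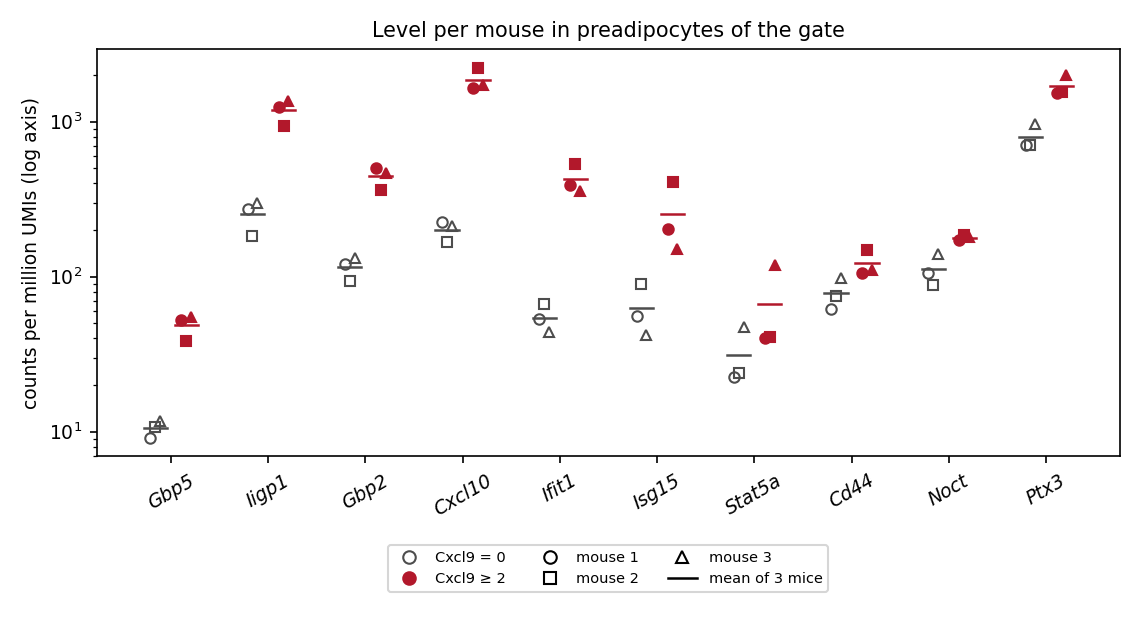
Level of 10 genes in counts-per-million (CPM) (log axis) in members (Cxcl9 of at least 2, filled red) and Cxcl9=0 preadipocytes (open grey), with 1 symbol per mouse and a line at the mean. Gbp2, Gbp5, Iigp1, Cxcl10, Ifit1 and Isg15 separate the groups by wide gaps, Cd44, Noct and Ptx3 by narrower gaps, and Stat5a overlaps because mouse 3 is high in both groups.

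Genes usually ascribed to type I interferon were higher as well. Of 27 tested type I interferon-stimulated genes 23 were higher and 0 lower, with a median log2 difference of 1.51, and 21 did not overlap between groups. Ifit1, which binds viral RNA, stood at 391, 535 and 358 CPM in members against 53.0, 66.6 and 43.6 CPM, a log2 difference of 3.05 ± 0.07 (adjusted p = 2.6e-23). Isg15, a ubiquitin-like modifier, stood at 202, 411 and 150 CPM against 56.0, 89.1 and 41.9 CPM, with mouse 2 high in both groups, and differed by 2.08 ± 0.08 (adjusted p = 1.0e-17). Among the other abundant members of the list, Ifi203 differed by 1.63 ± 0.06, Bst2, which tethers virions, by 0.86 ± 0.07, Ifi27l2a by 0.70 ± 0.05 and Ifi204 by 0.64 ± 0.06. The 4 that did not pass the test were Ifit2, Isg20, Oas1a and Oasl1. Genes ascribed to either kind of interferon were thus higher in the same cells, so they are called here by their Cxcl9 UMIs and not by interferon-gamma.

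Of 20 other interferon-gamma targets 14 were higher and 0 lower, with a median of 1.04. Cxcl10, the neighbour of Cxcl9 on chromosome 5 and a ligand of the same receptor, stood at 1648, 2228 and 1714 CPM in members against 225, 166 and 211 CPM, a difference of 3.29 ± 0.09 (adjusted p = 1.2e-20). Parp14, a mono-ADP-ribosyltransferase, differed by 1.57 ± 0.08, Xaf1 by 1.08 ± 0.10, Nampt, the rate-limiting enzyme of NAD salvage, by 0.93 ± 0.08, Casp4 by 0.60 ± 0.07 and the complement inhibitor gene Serping1 by 0.41 ± 0.04. Cd274, which encodes PD-L1 and was chosen after its values were seen, was low at 27.8, 14.5 and 21.7 CPM against 6.41, 6.13 and 4.48 CPM and differed by 1.95 ± 0.22 (adjusted p = 1.5e-07). The 6 not called included Casp1, Wars and Il15, at 0.01, -0.11 and 0.40.

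The receptor and its signalling chain were mixed. Of 13 tested genes 11 were higher and 0 lower, with a median of 0.69, and the 2 not called were the receptor chains. Ifngr1 stood at 255, 240 and 268 CPM in members against 267, 235 and 293 CPM, so the groups overlapped and the difference was 0.03 ± 0.06 (adjusted p = 0.89), with Ifngr2 at -0.11 ± 0.10. Downstream of them, Irf1, the transcription factor named above, stood at 937, 404 and 861 CPM against 407, 176 and 412 CPM. Mouse 2 was low in both groups, each mouse showed about the same gap, and the difference was 1.24 ± 0.05 (adjusted p = 1.6e-16). Socs1, a feedback inhibitor of JAK kinases, stood at 295, 335 and 241 CPM against 134, 142 and 133 CPM and differed by 1.18 ± 0.07. Socs3 differed by 0.48 ± 0.05, Stat3 by 0.35 ± 0.07 and Jak1 by 0.33 ± 0.05. Irf8, better known from myeloid cells and chosen after its values were seen, was at 21.9, 28.0 and 24.2 CPM against 1.86, 1.99 and 3.36 CPM, a difference of 3.48 ± 0.26 (adjusted p = 2.5e-11).

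The 250 bases before the transcription start, in RefSeq's GRCm38.p6, are shown for 5 of these genes because they bear letters of the GAS or ISRE elements named above. Capitals mark TTCNNNGAA (GAS) or the letters GAAA, any 2 bases and GAAA again (ISRE), read on either strand, and all sequences run 5′ to 3′ on the strand of the gene.
Gbp2, chr3:142620413-142620662 (+ strand): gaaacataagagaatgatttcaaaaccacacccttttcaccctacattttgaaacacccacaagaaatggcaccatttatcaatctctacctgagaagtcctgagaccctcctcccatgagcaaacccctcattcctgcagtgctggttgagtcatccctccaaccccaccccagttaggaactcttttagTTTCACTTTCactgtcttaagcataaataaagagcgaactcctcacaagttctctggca
Gbp5, chr3:142496684-142496933 (+ strand): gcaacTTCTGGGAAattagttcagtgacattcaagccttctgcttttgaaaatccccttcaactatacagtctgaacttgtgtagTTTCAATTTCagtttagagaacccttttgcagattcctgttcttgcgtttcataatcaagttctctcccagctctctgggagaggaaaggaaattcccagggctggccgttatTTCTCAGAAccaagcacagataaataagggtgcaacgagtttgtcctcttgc
Irf1, chr11:53769764-53770013 (+ strand): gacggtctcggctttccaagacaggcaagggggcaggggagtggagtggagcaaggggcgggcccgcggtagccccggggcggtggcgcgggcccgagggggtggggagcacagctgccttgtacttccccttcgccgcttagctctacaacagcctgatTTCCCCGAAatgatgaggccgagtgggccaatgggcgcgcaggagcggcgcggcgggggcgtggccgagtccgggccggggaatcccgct
Ifit1, chr19:34640639-34640888 (+ strand): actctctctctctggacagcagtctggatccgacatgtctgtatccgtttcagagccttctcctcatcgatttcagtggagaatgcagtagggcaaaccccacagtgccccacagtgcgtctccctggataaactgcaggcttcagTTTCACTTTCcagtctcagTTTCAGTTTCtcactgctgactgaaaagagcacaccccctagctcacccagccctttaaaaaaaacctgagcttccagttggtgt
Cxcl10, chr5:92348890-92349139 (- strand): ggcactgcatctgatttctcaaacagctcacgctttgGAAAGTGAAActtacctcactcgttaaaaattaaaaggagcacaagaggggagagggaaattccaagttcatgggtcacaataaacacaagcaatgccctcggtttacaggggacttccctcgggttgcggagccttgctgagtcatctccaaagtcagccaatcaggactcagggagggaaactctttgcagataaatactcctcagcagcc

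Gbp2, Ifit1 and Cxcl10 thus held ISRE letters only, Irf1 held GAS letters only, and Gbp5 held both kinds. In Gbp2 the ISRE letters lay 59 to 50 bases before the start, and in Irf1 the GAS letters lay 90 to 82 bases before it. Of 11 GTPases with a RefSeq promoter, 11 held ISRE letters and 7 held GAS letters, and of 21 type I genes 10 held ISRE and 5 GAS letters. Of 15 other interferon-gamma targets, the list of Cxcl10, 1 held ISRE and 3 GAS letters, and of 12 genes of the receptor and signalling list 2 held ISRE and 3 GAS letters. For comparison, of the 9153 tested genes with a promoter 3.11% held ISRE and 6.96% held GAS letters. Among 528 genes that were higher in members the shares were 10.2 and 11.4%, and among 124 that were lower 0.0 and 6.45%. The windows of Cxcl9, Cd44, Noct, Ptx3 and Stat5a held neither. A match of letters is a description of the sequence and not evidence that a factor binds there.

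Antigen presentation was split by class. Of 20 tested genes of the class I pathway 15 were higher and 0 lower, with a median of 0.44. B2m, the light chain of class I, stood at 1967, 2799 and 1930 CPM against 1457, 1945 and 1351 CPM, higher within each mouse while the groups overlapped because mouse 2 was high in both, and it differed by 0.57 ± 0.04 (adjusted p = 2.8e-11). H2-K1 differed by 0.50 ± 0.04, H2-D1 by 0.47 ± 0.04, Tapbp by 0.35 ± 0.06 and Calr by 0.16 ± 0.05, while Pdia3 was not called at 0.13. The H2 genes are close copies, so reads can be split among them. Tap1, a peptide transporter subunit chosen after its values were seen, stood at 77.4, 65.7 and 74.1 CPM against 33.7, 27.6 and 38.0 CPM and differed by 1.23 ± 0.10 (adjusted p = 2.4e-10). Class II genes, which professional antigen-presenting cells use, were near 0. Cd74 stood at 1.77, 1.08 and 4.03 CPM against 0.969, 0.613 and 4.11 CPM, and of the 4 class II genes tested 0 were called by edgeR, 0 by DESeq2 and 0 at an unadjusted p under 0.05.

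Inflammatory genes were higher in members too. Of 20 tested genes of the NF-kB list, subunits, inhibitors and targets, 15 were higher and 0 lower, with a median of 0.57. Nfkb1, a subunit, stood at 361, 424 and 461 CPM against 196, 197 and 311 CPM and differed by 0.94 ± 0.07 (adjusted p = 5.0e-11, and 0.17 without the mouse as a block). Tnfaip2 differed by 1.02 ± 0.06, Nfkbiz by 0.53 ± 0.06, Csf1, the macrophage growth factor, by 0.51 ± 0.06, the adhesion receptor gene Vcam1 by 0.35 ± 0.08, though in 2 of 3 mice only, and the inhibitor Nfkbia by 0.24 ± 0.05. Il6, chosen after its values were seen, stood at 163, 351 and 354 CPM against 82.6, 133 and 190 CPM and differed by 1.19 ± 0.08 (adjusted p = 2.1e-12). Of 15 other chemokines 10 were higher and 0 lower, with a median of 0.81. Ccl7, a monocyte attractant, stood at 2048, 4151 and 3275 CPM against 751, 1334 and 1555 CPM and differed by 1.47 ± 0.06 (adjusted p = 1.0e-16, and 0.13 without the mouse as a block). The groups did not overlap for it. Ccl2 differed by 1.21 ± 0.08, Cxcl1 by 0.81 ± 0.05, Cxcl14 by 0.50 ± 0.05 and the eosinophil attractant Ccl11 by 0.47 ± 0.05, while Cxcl12 was not called at 0.20.

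**Figure D2:**
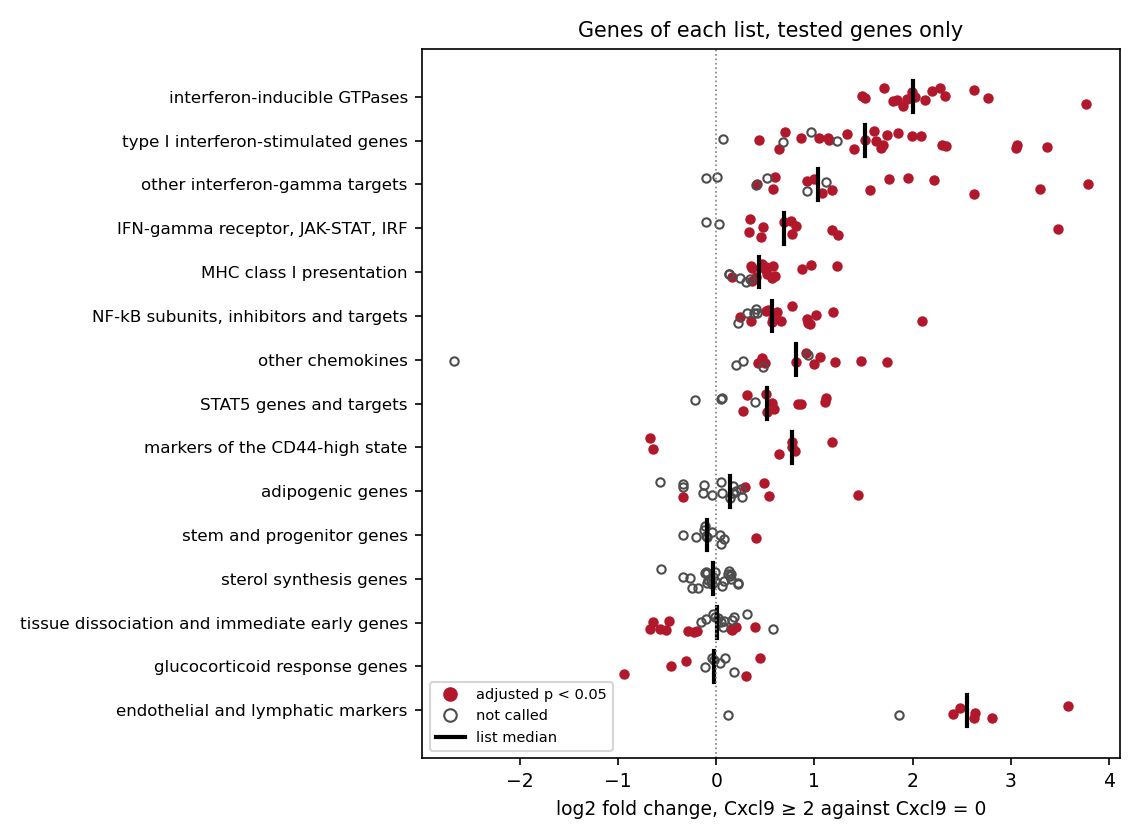
Log2 difference between members and Cxcl9=0 preadipocytes for each tested gene of the gene lists, with genes called at an adjusted p under 0.05 in filled red, others open, and the median of each list as a bar. GTPases (median 2.01) and type I genes (1.51) lie well to the right of 0, while sterol synthesis genes (-0.03) and stem and progenitor genes (-0.09) lie around it.

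Ptx3 and Noct of the CD44-high state also followed Cxcl9, while the call of Cd44 itself depended on how depth was equalized. The study named Cd44, Noct, Ptx3, Mt2, Txnip and G0s2 on these same samples, so their count is not independent evidence of a direction, and Mt1 was added here as a close relative of Mt2. Of these 7 genes 5 were higher (Cd44, Noct, Ptx3, Mt1 and Mt2) and 2 lower (Txnip and G0s2). The study ties Txnip and G0s2 to the CD44-low state. Ptx3 stood at 1536, 1557 and 1987 CPM in members against 705, 712 and 971 CPM, without overlap, and differed by 1.18 ± 0.04 (adjusted p = 1.0e-17). Noct stood at 171, 185 and 180 CPM against 105, 88.3 and 141 CPM and differed by 0.80 ± 0.09 (adjusted p = 1.1e-07). Noct overlaps another annotated gene on the same strand, so its reads are less certain.

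Cd44, the hyaluronan receptor, stood at 106, 149 and 111 CPM in members against 61.5, 74.7 and 97.7 CPM. The gap was wide in mice 1 and 2 and narrow in mouse 3, and the difference was 0.77 ± 0.10 (adjusted p = 2.3e-06). With cells thinned to 3000 UMIs before summing it was 0.47 (adjusted p = 0.12, edgeR), and with cells thinned before gating 0.38 (0.71), so the call did not hold, whereas Noct at 0.76 and 0.58 and Ptx3 at 1.17 and 1.14 stayed called. Against Cxcl9=0 cells matched on total UMIs, which keeps each cell's counts, Cd44 stayed called at 0.78 (adjusted p = 1.8e-05, edgeR). Among cells thinned to 3000 UMIs, 23.9, 32.8 and 20.4% of members had a Cd44 UMI against 14.1, 17.0 and 22.5% of Cxcl9=0 cells, so in mouse 3 the order turned; unthinned, the shares were 47.3, 60.4 and 45.0% against 28.3, 43.3 and 37.4%. With a robust estimate of the spread, an alternative added after seeing the data, the adjusted p of Cd44 was 0.012, and without the mouse as a block it was 0.40 for Cd44, 0.20 for Noct and 0.022 for Ptx3 (edgeR). Mt2, a metallothionein, differed by 0.77 ± 0.05 and Mt1 by 0.64 ± 0.04. Txnip, an inhibitor of thioredoxin and of glucose uptake, stood at 675, 713 and 742 CPM against 1206, 1159 and 1220 CPM, lower in members without overlap, a pattern that 8.72% of all tested genes showed, and its level fell by 0.67 on the log2 scale (adjusted p = 1.9e-11).

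All 3 genes together were detected in 26.1, 41.7 and 25.6% of members against 11.6, 18.2 and 18.8% of Cxcl9=0 cells. Members without a UMI of any of the 3 were 10.3, 18.7 and 7.50%. Read the other way, the share of Cxcl9-positive cells was 7.97% ± 0.25 among gated cells with 0 UMIs of Cd44, 12.2% ± 2.12 with 1 and 15.9% ± 4.32 with at least 2 (SD, n = 3). In cells thinned to 3000 UMIs the shares were 5.75% ± 1.32, 9.84% ± 2.77 and 6.37% ± 4.38, and the last rests on 3, 5 and 3 members. The order held in mouse 2 only, with 4.31, 9.94 and 11.4%. For Noct the shares were 7.35, 9.58 and 16.8% with 0, 1 and at least 2 UMIs and 5.17, 8.80 and 12.8% after thinning. For Ptx3 they were 6.75, 6.64 and 17.1% with 0, 1 to 4 and at least 5 UMIs and 3.63, 5.90 and 13.6% after thinning. Noct and Ptx3 kept their highest class on top at equal depth.

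**Figure D3:**
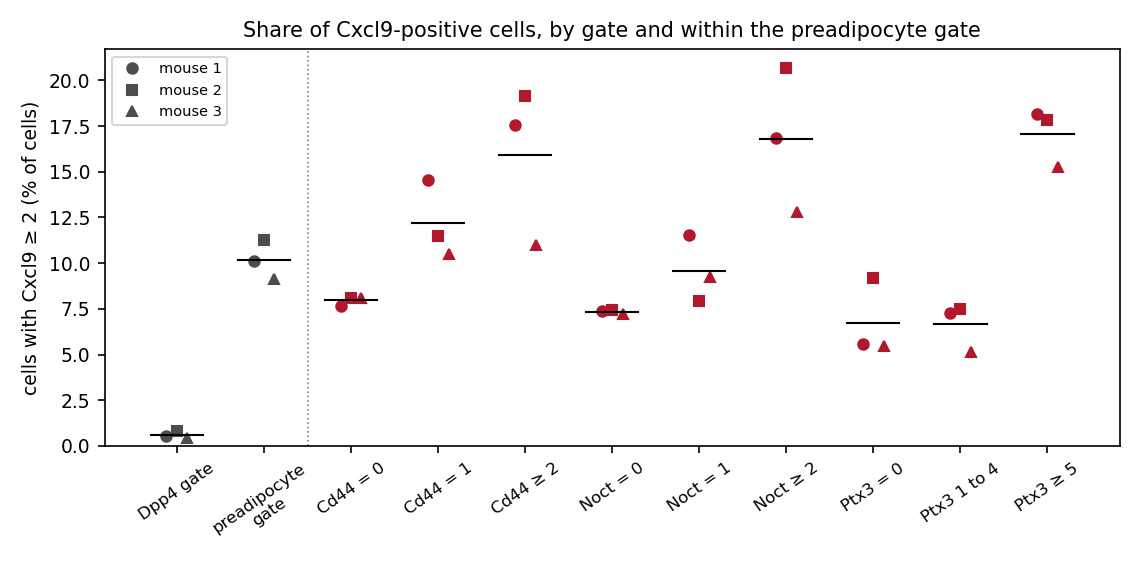
Share of cells with at least 2 UMIs of Cxcl9, in percent, in the Dpp4 gate, in the preadipocyte gate and within the preadipocyte gate by UMIs of Cd44, Noct and Ptx3, with 1 symbol per mouse and a line at the mean, at full depth. The Dpp4 gate lies between 0.426 and 0.801% and the preadipocyte gate between 9.11 and 11.3%, and the share is highest in the top class of each of the 3 genes.

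The interferon signature was present in cells with 0 and in cells with at least 2 UMIs of Cd44. A cell with 0 UMIs can still hold undetected Cd44 mRNA, so these strata do not hold the CD44 state fixed. Within cells with 0 UMIs of Cd44, 413 of 9099 genes were called (4.54%), 359 higher (3.95%) and 54 lower (0.593%) in Cxcl9-positive than in Cxcl9=0 cells. Within cells with at least 2 UMIs of Cd44, 273 were called (3.0%), 238 higher (2.62%) and 35 lower (0.385%). Gbp2 differed by 2.06 ± 0.11 in the former and 1.86 ± 0.12 in the latter, Ifit1 by 3.13 ± 0.11 and 2.90 ± 0.11, and Cxcl10 by 3.44 ± 0.17 and 3.16 ± 0.18. The test of the difference between strata called 2 genes, 0.022% of those tested, both with a smaller difference in cells with at least 2 UMIs. Ptx3 differed by 1.32 ± 0.07 with 0 UMIs of Cd44 and by 0.61 ± 0.07 with at least 2 (difference -0.71 ± 0.10, adjusted p = 8.8e-04). Without cells carrying Pecam1 or Cdh5 this became -0.78 ± 0.09 (adjusted p = 5.2e-06, edgeR). The other was Rgcc, a cell cycle regulator named after its values were seen, at -2.75 ± 0.40, which became -1.23 ± 0.35 and was not called without those cells (adjusted p = 0.44). Of 7 endothelial markers 6 were called higher in Cxcl9-positive cells with 0 UMIs of Cd44, with a median of 3.47, and 0 in those with at least 2, with a median of -0.16, while the test of the difference between strata called 0 of the 7, with 1 at an unadjusted p under 0.05 (edgeR). Without cells carrying Pecam1 or Cdh5, 332 genes were called in the former stratum and 301 in the latter. Without mouse 1 edgeR called 0 genes in this test, with 423 at an unadjusted p under 0.05, and called 210 and 147 genes within the strata with 0 and with at least 2 UMIs of Cd44.

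Stat5a, a transcription factor of growth hormone and cytokine receptors, stood at 40.2, 40.9 and 118 CPM in members against 22.5, 23.9 and 47.5 CPM in Cxcl9=0 cells. Mouse 3 was high in both groups, so the groups overlapped, but each mouse was higher in members and the difference was 1.11 ± 0.12 (adjusted p = 3.3e-08; 0.67 without the mouse as a block, edgeR). Of 14 genes of the STAT5 list 10 were higher and 0 lower, with a median of 0.51. Pim1, a kinase, differed by 0.87 ± 0.07, Osmr, the oncostatin M receptor, by 0.84 ± 0.08, Il4ra by 0.57 ± 0.07, Igf1 by 0.32 ± 0.06 and the shared receptor chain Il6st by 0.27 ± 0.07, while the growth hormone receptor Ghr was not called at 0.05.

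Adipogenic genes were mixed. Of 19 tested 5 were called, 4 higher and 1 lower, where 7.29% of all tested genes were called, and their median was 0.14, and leaving out cells with endothelial markers gave 3 higher, as Cebpd and Apoe kept their calls and Cebpb gained one. By library size only 4 were higher and 2 lower. DESeq2 called 1 higher and 1 lower, as did the robust fit, and edgeR without the mouse as a block called 0. Lpl, lipoprotein lipase, stood at 2997, 2650 and 3071 CPM against 3172, 2737 and 2951 CPM, with overlapping groups and a difference of 0.06 ± 0.04 (adjusted p = 0.54), and Cebpb and Angptl4 were not called at 0.14 and -0.13. Cebpd, an early adipogenic factor, differed by 0.30 ± 0.04 and Apoe by 0.49 ± 0.07, while Plin2, a lipid droplet coat protein, fell by 0.34 on the log2 scale (adjusted p = 3.2e-05). Cd36 and Fabp5, chosen after their values were seen, were called at 0.54 and 1.45, but at -0.07 and 0.12 they were not once cells with Pecam1 or Cdh5 were left out. Of 11 stem and progenitor genes 1 was higher, Ly6a (Sca-1), by 0.40 ± 0.04, and 0 lower (2 lower by library size only), while Pdgfra, Cd34, Cd248, Itgb1 and Fn1 differed by -0.04, -0.09, -0.10, 0.04 and -0.12 and were not called. Of 24 sterol synthesis genes 0 were called by edgeR and 0 by DESeq2, with 1 at an unadjusted p under 0.05.

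Genes that respond to tissue dissociation did not move together. Of 24, 4 were higher and 8 lower, with a median of 0.00, against 1 and 8 by library size only and 2 and 7 with DESeq2. Their summed level was 34076, 27763 and 33667 CPM in members and 39919, 31609 and 38759 CPM in Cxcl9=0 cells, lower within each mouse. Fos, an immediate early gene, stood at 3832, 2251 and 2938 CPM in members against 5468, 3549 and 4235 CPM and fell by 0.48 on the log2 scale (adjusted p = 2.2e-10), and Jun fell by 0.29. Hspa1a, a heat shock gene chosen after its values were seen, stood at 501, 830 and 874 CPM against 924, 1278 and 1494 CPM and fell by 0.67 (adjusted p = 5.7e-11). The exceptions were Fosb at 0.20, Klf4 at 0.16, Zfp36 at 0.15 and Fosl2 at 0.39, all higher, of which Fosb was -0.0055 when cells were thinned before gating. Of 11 glucocorticoid response genes 2 were higher, Errfi1 by 0.30 and Zbtb16 by 0.45 (-0.057 when cells were thinned before gating), and 3 lower, among them Dusp1 by -0.31, while Klf9, Sgk1, Nr3c1 and Hsd11b1 were not called at 0.04, 0.09, -0.02 and -0.04.

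Of the 690 higher genes 136, or 19.7%, were on one of the lists. Outside the lists and gates, the largest differences that were positive in each mouse and reached 20 CPM in a group were led by Adgrf5, which is expressed in vessels and stood at 36.0, 28.0 and 1.61 CPM in members; its difference of 2.13 became 0.34 (adjusted p = 0.77) without cells carrying Pecam1 or Cdh5. Slfn2 followed at 2.06 ± 0.18 and the interferon-inducible GTPase Ifi47 at 1.94 ± 0.10, which stood at 102, 112 and 108 CPM against 23.6, 37.5 and 27.7 CPM. The endothelial lipase gene Lipg differed by 1.79 ± 0.19, Mcoln2 by 1.78 ± 0.21, Rnd1 by 1.75 ± 0.16, Pakap by 1.68 ± 0.21, Tmem176a by 1.65 ± 0.12, Tifa, an adaptor upstream of NF-kB, by 1.64 ± 0.17 and Tmem176b by 1.61 ± 0.09. Pakap is a symbol that the files give to more than 1 identifier, and the value is of the identifier tested.

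Among the lower genes by the same rule, Gdf15, a stress-induced cytokine, stood at 9.45, 2.69 and 25.0 CPM in members against 33.0, 27.5 and 66.5 CPM and fell by 1.79 on the log2 scale (adjusted p = 5.7e-08). Mgp, an inhibitor of calcification, fell by 1.22, Swt1 by 1.11, Sfrp2, a Wnt modulator, by 0.90, Fam71a by 0.82, Msx1 by 0.82, the prohormone-processing enzyme gene Cpe by 0.81, Dleu2 by 0.76 and the Notch target Hes1 by 0.75. Hes1 stood at 81.0, 105 and 66.9 CPM against 114, 217 and 125 CPM. Acta1, skeletal muscle actin, had the largest drop at -4.30, but 1309 of the 1341 UMIs in Cxcl9=0 cells were in a single cell of mouse 2.

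The threshold of 2 UMIs fell within a gradient. Cells just inside it, with exactly 2, numbered 41, 28 and 29, and cells just outside, with exactly 1, numbered 100, 82 and 81. Iigp1 stood at 275, 182 and 299 CPM with 0 UMIs of Cxcl9, 455, 213 and 605 CPM with 1 and 902, 360 and 520 CPM with exactly 2, so mouse 3 was lower just inside than just outside. With 6 or more UMIs it stood at 1412, 1240 and 1745 CPM. The summed level of the GTPase list had means of 621, 1064, 1292, 1596 and 3176 CPM with 0, 1, exactly 2, 2 to 5 and 6 or more UMIs, and that of the type I list 2015, 2615, 2879, 3173 and 5334 CPM, where the class of 2 to 5 includes the cells with exactly 2. Not every mouse followed the means. From 1 to exactly 2 UMIs the GTPase sum of mouse 3 went from 1388 to 1092 CPM and the type I sum of mouse 2 from 3206 to 2857 CPM. Some lists did not rise at this step even in their means. The other interferon-gamma targets went from 2450 to 2444 CPM, the class I list from 9082 to 9011 and the NF-kB list from 3032.9 to 3024.5. The receptor and signalling list rose from 2769.5 to 2954.5 CPM and the other chemokines from 7214.5 to 8185.5.

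**Figure D4:**
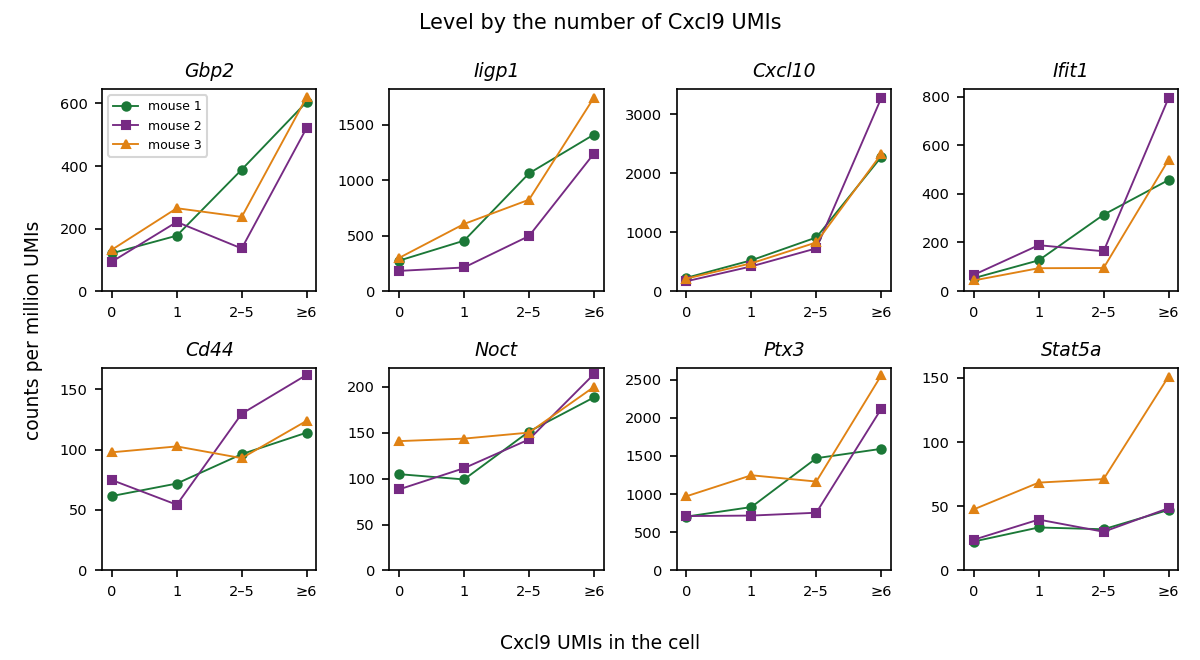
Level of 8 genes in counts-per-million (CPM) against the number of Cxcl9 UMIs in the cell (0, 1, 2 to 5, 6 or more), with 1 line per mouse and all axes starting at 0. Gbp2, Iigp1, Cxcl10 and Ifit1 are already above the 0 class at 1 UMI in the 3 mice, while Cd44 at 1 UMI lies above it in mice 1 and 3 and below it in mouse 2.

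Cells with a single Cxcl9 UMI, which the rule leaves out, were higher in some interferon genes, while Cd44, Noct and Ptx3 did not pass the test. They share their controls with the members. Against Cxcl9=0 cells 77 of 11649 genes were called (0.661%), 55 higher (0.472%) and 22 lower (0.189%). Among the higher were 6 of 14 GTPases, 9 of 27 type I genes, 1 of 19 other interferon-gamma targets and 1 of 13 genes of the receptor and signalling list, so most genes of these lists did not pass. Gbp2 differed by 0.96 ± 0.10 (adjusted p = 1.1e-06), Iigp1 by 0.69 ± 0.09, Ifit1 by 1.35 ± 0.11 and Cxcl10 by 1.25 ± 0.07 (adjusted p = 2.2e-12, edgeR). Cd44 differed by -0.06 ± 0.13 (adjusted p = 0.97), Noct by 0.12 ± 0.10 (0.93) and Ptx3 by 0.21 ± 0.06 (0.18), and none of these was called. Ptx3 did pass under 6 alternatives, among them 0.24 without cells carrying Pecam1 or Cdh5 (adjusted p = 0.035) and 0.29 against depth-matched cells (0.0073), while Iigp1 kept its size but lost its call with cells thinned before summing (0.66, adjusted p = 0.11), with the robust fit (0.69, 0.062) and without mouse 1 (0.66, 0.12). Without the mouse as a block edgeR called 0 genes here, with 248 at an unadjusted p under 0.05, and with the block it called 26 without mouse 1.

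Within the members, cells with 6 or more Cxcl9 UMIs were compared with those with 2 to 5. Of 7331 genes tested 102 were called (1.39%), 87 higher (1.19%) and 15 lower (0.205%), among them 9 GTPases and 13 type I genes, all higher. Cxcl10 stood at 2277, 3277 and 2325 CPM against 910, 725 and 826 CPM and differed by 1.73 ± 0.14 (adjusted p = 1.0e-05), and Gbp5 differed by 1.60 ± 0.22. Gbp2 and Iigp1 were called too, but not with the robust edgeR fit (1.33, adjusted p = 0.34, and 0.99, 0.22). Without mouse 3 Gbp5 (1.44, adjusted p = 0.11, edgeR), Gbp2 (1.30, 0.27) and Iigp1 (0.92, 0.32) lost their calls. Ptx3 stood at 1592, 2116 and 2554 CPM against 1470, 756 and 1164 CPM and differed by 0.97 ± 0.18 (adjusted p = 0.012), with little gap in mouse 1, and it kept its size but not its call with DESeq2 (1.00, adjusted p = 0.46) and with the robust fit (0.97, 0.72). Without mouse 2 it was 0.64 (adjusted p = 0.25, edgeR) and without mouse 3 it was 0.86 (0.55), neither called. Noct differed by 0.51 ± 0.13 (adjusted p = 0.069) and Cd44 by 0.39 ± 0.13 (adjusted p = 0.30), and both missed the threshold. Noct passed it without mouse 1 (0.61, adjusted p = 0.0039, edgeR), with no filter on low counts (0.54, 0.020) and with the robust fit (0.51, 0.049). With the block edgeR called 0 genes without mouse 3, where 462 had an unadjusted p under 0.05, 21 without mouse 2 and 291 without mouse 1.

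GTPase and Ifit genes were often detected in the same member cells. Summing Gbp2 and Iigp1 UMIs for the former and Ifit1, Ifit3 and Isg15 UMIs for the latter, 60, 57 and 42 members, or 29.6, 41.0 and 26.3%, had at least 5 of each, against 3.47, 6.51 and 3.23% of Cxcl9=0 cells. Members with at least 5 GTPase UMIs and at most 1 of the latter numbered 35, 9 and 31, while the reverse was found in 1, 1 and 0. The GTPase genes had more UMIs in all, with medians of 9, 8 and 10 against 2, 3 and 1 per member, so the 2 counts cannot be set against each other and these cells do not show that the genes are separate. Members with 0 UMIs of all 5 genes made up 6.40, 5.04 and 10.0%.

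In the Dpp4 gate 36, 21 and 35 cells carried at least 2 UMIs of Cxcl9, and against Cxcl9=0 cells of that gate 345 of 12409 genes were called (2.78%), 176 higher (1.42%) and 169 lower (1.36%). Of 17 GTPases tested there 8 were higher, 0 lower and 9 not called. Gbp2 differed by 1.62 ± 0.19, Gbp5 by 2.86 ± 0.29 and Iigp1 by 2.57 ± 0.18. At least 4 UMIs of Cxcl9 were found in 138, 96 and 114 of the 203, 139 and 160 members. In the Dpp4 gate 22, 8 and 15 of the Cxcl9-positive cells had as many, a smaller share in each mouse. Cxcl9 level and gate therefore differ together when the gates are compared, and they cannot be told apart here. The difference between gates was tested as an interaction, which called 159 genes (1.28%), 115 with a larger value in the preadipocyte gate (0.927%) and 44 with a smaller one (0.355%). Its median over all genes was 0.13, and with normalization by library size alone it was -0.04 and the split turned to 41 and 71. It called 52 genes without mouse 1 and 92 without mouse 2, and without the mouse as a block 0, with 596 at an unadjusted p under 0.05.

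Of 28 type I genes tested 9 had a larger difference in preadipocytes and 0 a smaller one, and of 17 GTPases 0 were called, with 5 at an unadjusted p under 0.05 (edgeR). The interaction of Gbp2 was 0.40 and not called, but it was called without mouse 3 (0.92, adjusted p = 0.0063) and with at least 1 UMI of Cxcl9 as the rule (0.96, 1.9e-04), so a difference between GTPases and type I genes in this respect is not shown. Ifit1 stood at 115, 97.3 and 168 CPM in Cxcl9-positive cells of the Dpp4 gate against 40.3, 43.6 and 33.9 CPM there, and the difference was larger in preadipocytes by 1.47 ± 0.18 (adjusted p = 2.4e-06). Cxcl10 stood at 1466, 1444 and 1669 CPM against 357, 345 and 378 CPM in the Dpp4 gate, where Cxcl9=0 cells had more of it than those of the preadipocyte gate, and the difference was larger in preadipocytes by 1.30 ± 0.15 (adjusted p = 8.1e-07). Cd44, Noct and Ptx3 were higher in Cxcl9-positive cells of the Dpp4 gate by 1.19 ± 0.24, 1.56 ± 0.23 and 1.26 ± 0.10, and their interactions of -0.43 ± 0.26, -0.77 ± 0.24 and -0.09 ± 0.13 were not called (adjusted p = 0.59, 0.11 and 0.87, edgeR). In cells of the Dpp4 gate thinned to 3000 UMIs, a Cd44 UMI was found in 8.82, 14.3 and 26.5% of Cxcl9-positive cells against 11.5, 8.19 and 14.3% of Cxcl9=0 cells, so mouse 1 turned round, on 34, 21 and 34 positive cells. The thinned shares of Noct (11.8, 28.6 and 35.3% against 8.71, 4.64 and 8.29%) and of Ptx3 (64.7, 81.0 and 70.6% against 47.1, 39.0 and 58.9%) were higher in each mouse. A difference in size between the gates was not called, except for Noct with the robust fit (adjusted p = 0.020), with no filter on low counts (0.0079) and by library size only (0.050, just under the threshold).

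**Figure D5:**
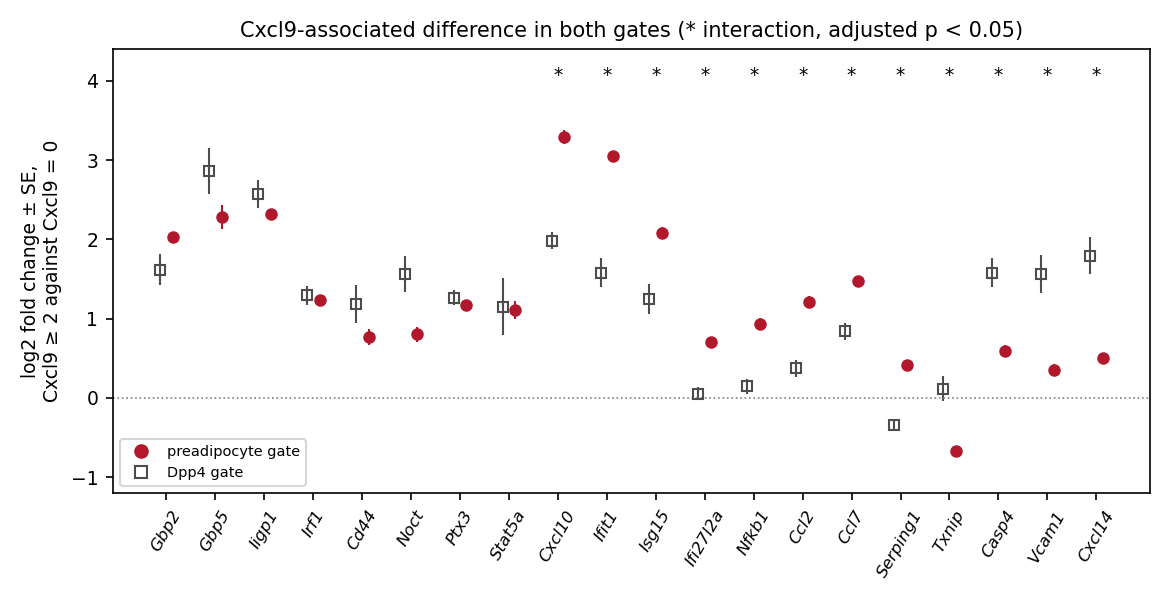
Log2 difference ± SE between Cxcl9-positive and Cxcl9=0 cells in the preadipocyte gate (red circles) and in the Dpp4 gate (open squares) for 20 genes, each gate from its own contrast, with a star where the interaction passed an adjusted p of 0.05. Ifit1 and Cxcl10 lie higher in the preadipocyte gate, Casp4, Vcam1 and Cxcl14 lie higher in the Dpp4 gate, and Gbp2, Gbp5, Iigp1, Cd44, Noct and Ptx3 carry no star.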

How the data were processed

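The deposited values were UMI counts per gene and barcode from 3 libraries, which the authors made with Cell Ranger (4.0.0 per the file headers, 2.1.1 with build mm10 in the submitters' processing notes). They were not normalized, and all 32285 genes in the files were read. Of these identifiers 32235 matched GENCODE M21. The members and the lists were chosen with earlier results of these data known.

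Barcodes with over 500 genes and under 5% mitochondrial UMIs were kept. Doublets were not removed, and leaving out the 5% of cells with the most UMIs was an alternative. Counts were summed per mouse and group, filtered with filterByExpr, normalized with TMM and fitted with edgeR's quasi-likelihood test, with the mouse as a block and Benjamini-Hochberg adjustment at 0.05. CPM values were scaled by library size alone, while log2 differences were fitted after TMM. Small differences, such as those of Lpl and Ifngr1, can therefore have another sign than the CPM. Members and controls came from the same animal, and their deviations correlated across 11757 genes with r = 0.39, 0.61 and 0.43 in the 3 mice. Intervals on shares of cells are exact binomial at 95% and cover counting error only. Shares were also computed in cells thinned to 3000 UMIs, which left out 6, 8 and 3 members and 47, 22 and 54 Cxcl9=0 cells. The scripts were tested on simulated data.

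The text names Cxcl9, Gbp5, Iigp1, Gbp2, Cd44, Stat5a, Noct and Ptx3, the up to 6 most abundant genes of each of 22 lists (354 genes), the exceptions to a list's direction, and, outside lists and gates, the 10 largest changes each way that passed the test with 1 sign in all mice and reached 20 CPM in a group. Others are said to have been chosen after their values were seen. Promoters came from RefSeq's GRCm38.p6 table. Tests ran in R 4.3.3 with edgeR 4.0.16, limma 3.58.1 and, as an alternative, DESeq2 1.42.0. Sums and shares were made in Python 3.11.15 (scipy 1.17.1, pandas 2.3.3, numpy 2.4.6) and plots with matplotlib 3.10.9.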

Additional observations from a re-analysis of the deposited data

Results flagged for a closer look

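For 20 genes named by the rule, the difference between Cxcl9-positive and Cxcl9=0 cells was not the same in the preadipocyte gate and in the Dpp4 gate, by edgeR's test of the interaction. It was larger in the preadipocyte gate, on the log2 scale, by 1.47 for Ifit1, 1.30 for Cxcl10, 0.83 for Ccl2, 0.82 for Isg15, 0.79 for Parp14, 0.78 for Nfkb1, 0.77 for the endothelial receptor gene Tek, 0.75 for Serping1, 0.64 for Fosl2, 0.64 for Ifi27l2a, 0.62 for Ccl7, 0.62 for Fosb, 0.61 for Klf4, 0.53 for Tapbp and 0.52 for Errfi1. It was smaller there for Txnip (-0.79), Casp4 (-0.99), Plin2 (-1.05), Vcam1 (-1.22) and Cxcl14 (-1.30). The median of this difference over all genes tested was 0.13, so the smaller of these values should be read relative to it. A smaller share of the Cxcl9-positive cells of the Dpp4 gate had at least 4 UMIs of Cxcl9, so gate and Cxcl9 level cannot be told apart. The adjusted p of Parp14 was 0.049 and that of Tapbp 0.050, close to the threshold.

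For 2 genes the difference was not the same in preadipocytes with at least 2 UMIs of Cd44 and in those with 0. It was smaller with at least 2 UMIs for Ptx3 (-0.71) and for Rgcc (-2.75). Without cells carrying Pecam1 or Cdh5 the values were -0.78 and -1.23, and Rgcc was no longer called (adjusted p = 0.44, edgeR).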

How the results depend on the processing

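Members against Cxcl9=0 cells gave 857 calls, 422 with DESeq2, 60 without the replicate block, 388 and 221 with cells thinned before summing and before gating, and 450 to 950 with a mouse left out. Cells with 1 Cxcl9 UMI gave 77, and 27 with DESeq2, 0 without the replicate block, 5 and 15 with either thinning, 47 with at least 8 UMIs of Icam1 and Fabp4, and 26 to 101 with a mouse left out. Members with 6 or more against 2 to 5 UMIs gave 102, and 34 with DESeq2, 189 with no filter on low counts, 1 without the block, 66 thinned before summing, and 0 to 291 with a mouse left out. The interaction with the Dpp4 gate gave 159, and 81 with DESeq2, 0 without the block, 254 with the robust fit, and 52 to 115 with a mouse left out. The 2 calls between Cd44 strata became 7 by library size only, 38 with no filter, 0 without the block (183 at an unadjusted p under 0.05, edgeR), 8 thinned, 10 with Cxcl9 of at least 1, 10 with at least 8 UMIs of Icam1 and Fabp4, 4 at under 10% mitochondrial UMIs, 1 without cells with Pecam1 or Cdh5, 5 with the robust fit, and 0 to 10 with a mouse left out. Calls within Cd44 = 0 went from 413 to 242 with DESeq2, 62 without the block, 204 thinned and 210 to 351 with a mouse left out, and within at least 2 UMIs from 273 to 38 without the block, 135 thinned and 147 to 214 with a mouse left out. The share of 10.2% became 5.44% thinned before gating, 15.6% with at least 1 and 7.05% with at least 4 UMIs of Cxcl9, and 9.63 to 10.7% with a mouse left out. The causes were not tested.

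The alternatives for the Cd44 strata, the robust fit and leaving out cells with Pecam1 or Cdh5 were chosen after seeing the data. Of the values for single genes, 2397 kept their direction and side of the threshold, 224 lost the call, 83 of them without the block, 35 gained it and 5 changed sign. The last were Fosb (-0.0055) and Zbtb16 (-0.057) thinned before gating, Acta1 (0.70) without the 5% of cells with the most UMIs, and Rgs5, at 0.33, without cells with leukocyte or endothelial UMIs (-3.65) or with Pecam1 or Cdh5 (-3.69). Settings that left under 20 cells in a sum were not run: thinning before gating for members by Cxcl9 UMIs, the Dpp4 gate and the Cd44 strata, depth matching for members by Cxcl9 UMIs, and, for the Dpp4 gate, Cxcl9 of at least 4 and leaving out the deepest cells. With 3 mice of 1 strain and sex and 1 library each, a mouse and its library cannot be told apart, and the members of a mouse number at most 203.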
